A study of Homo sapiens with 24 samples.

Results

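This comparison set day 6 against day 3 of doxycycline in the TAp63 line of TYUC-1, the last step of its induction course. TYUC-1 is a human cell line from a neuroendocrine carcinoma of the esophagus, grown in suspension. The line carries an inducible TAp63 (genotype i-TAp63), and the members are all libraries labelled with that line at day 3 and day 6: 3 and 3, or 6 of the 24 libraries of the series. At day 3 the cells had received doxycycline (1 µg/ml) for the last 3 of 6 days, after 3 days in DMSO, and at day 6 they had received it for all 6 days. The other TAp63 groups used here had 0 days (day 0) and 1 day (day 1) of doxycycline, with 6 and 5 days in DMSO. The ΔNp63 line of TYUC-1, compared further below at days 3 and 6, had the same days of doxycycline (1 µg/ml) and DMSO. Days in DMSO fall as days of doxycycline rise, so they cannot be told apart either. A second label on each sample reads EPZ-6438, a drug that blocks EZH2 (the histone methylating enzyme of the polycomb complex), with day numbers equal to those of doxycycline. Titles and design name only p63 induction, so whether the inhibitor was present is not settled. Days of induction and days of inhibitor cannot be told apart. The labels do not say whether the line is 1 clone. The replicates are described as biological, but how the cultures were separated is not given, and the p-values here cover only the scatter among the libraries themselves.

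TP63 encodes a transcription factor of stratified squamous epithelia, related to p53. The TA form starts at an upstream promoter and includes an activation domain, which the ΔN form, started further downstream, does not. In squamous tissue p63 keeps the basal layer, and cells that leave that layer make cornified envelope proteins such as the small proline-rich proteins (SPRR) and cornulin. Neuroendocrine carcinomas normally lack this programme and, in tuft-like forms, rely on the lineage factor POU2F3.

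Between day 3 and day 6, GPC4, a cell-surface proteoglycan gene, and SPRR3, a cornified envelope gene, rose when same-numbered libraries were compared. Their log2 changes were 1.41 and 1.01 with replicate number as a block. The serotonin receptor subunit gene HTR3E stood lower in every day 6 library, at a log2 change of -0.64. Of all genes tested, 2.66% stood higher and 2.40% lower in every day 6 library than in any day 3 library. Of 15056 genes tested with edgeR on the 12 TAp63 libraries (days 0, 1, 3 and 6, a mean per day), 0 passed the threshold of 0.05 on the Benjamini-Hochberg adjusted p, below which a gene is here called, or 0% in either direction. An unadjusted p under 0.05 was found for 156 genes, 99 higher (0.658%) and 57 lower (0.379%). Libraries with the same replicate number deviated together from their day means. With that number as a block, 2 genes rose and 0 fell (0.0133% of genes tested): GPC4 and SPRR3. The median absolute log2 change over all genes was 0.07, against 0.13 from day 1 to day 3, a step that shares the day 3 libraries.

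The blocked count depended on which libraries were used. Both blocked calls were lost without replicate 2 of both days, with 0 genes called (edgeR adjusted p = 0.191 for SPRR3 and 0.954 for GPC4), while the log2 changes there were 1.06 and 1.37. Replicate 2 of day 1, which takes no part in the contrast but enters the shared spread, stood far above the other day 1 libraries for several early genes. Without it, 10 genes were called with the block, 3 higher and 7 lower. A fit of only the 6 libraries with the block, chosen after the data were seen and resting on 2 residual degrees of freedom, called 44 higher (0.306%) and 20 lower (0.139%) of 14380 genes, or 0.445%. DESeq2 called 1 gene, GPC4, without the block, and 3 higher (SPRR3, FN1, TSPAN18) and 1 lower (HTR3E) with it, where GPC4 had a log2 change of 1.39 and was not called (adjusted p = 1).

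**Figure D1:**
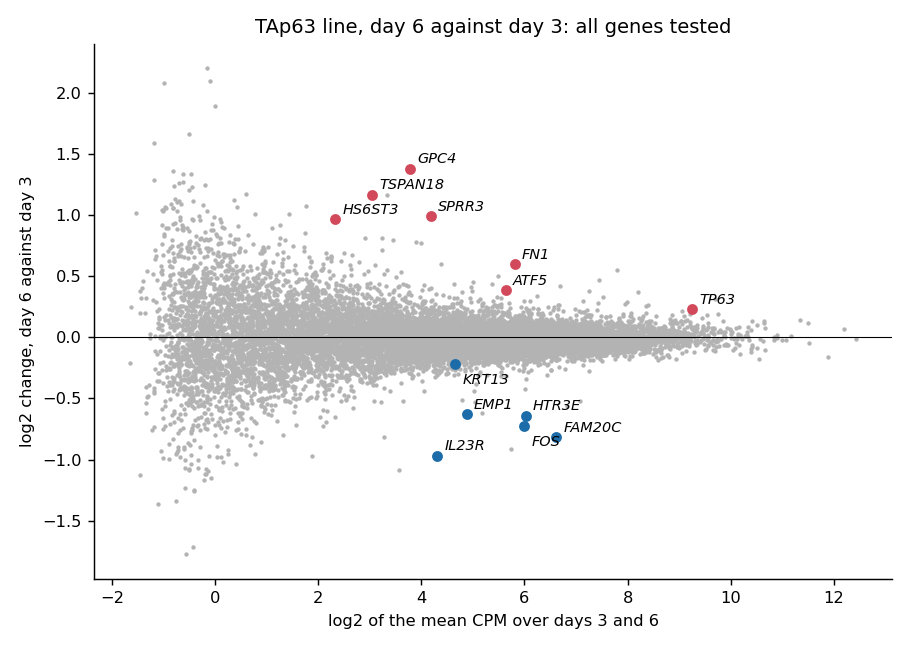
Log2 change from day 3 to day 6 (vertical axis) against the log2 of the mean CPM over both days (horizontal axis) for the 15056 genes tested in the TAp63 line, each a grey point. Named genes higher at day 6 are red and lower ones blue; GPC4 lies at 1.38 and TP63 at 0.23, and most well-counted genes lie close to 0.

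The induced gene itself did not pass the test. TP63 stood at 454, 598 and 626 CPM (counts scaled by library size) at day 3 in replicates 1, 2 and 3, and at 613, 694 and 665 at day 6. The day 6 libraries were higher in all 3 same-numbered pairs but overlapped the day 3 range, and the log2 change of 0.23 ± 0.13 (SE) was not called (edgeR adjusted p = 1). At day 0 its mean was 2.94 CPM. The count sums all TP63 isoforms, so it does not separate TAp63 from ΔNp63.

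Library totals for the 6 libraries ran from 7653790 counts (day 3, replicate 3) to 22019974 (day 3, replicate 2). No replicates were identical, and every pair within a day differed beyond counting noise, the closest with a chi-square of 5.35 times its degrees of freedom. The tuft factor POU2F3 was present at 171 to 204 CPM, whereas the granule protein CHGA and the factor INSM1 stayed at or below 1.12 and 0.62 CPM. Of markers of other cell types, 18 immune genes summed to 1077 to 1266 CPM at day 3 and 937 to 1362 at day 6, nearly all of it LYZ, with FCGR3A at 0. The 14 fibroblast genes summed to 35.9 to 45.4 and 32.9 to 47.5 CPM, with LUM, THY1 and POSTN at 0. In a bulk library, fewer cells of a type and less RNA per cell cannot be told apart.

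The promoters of the genes that the result turns on are shown from 250 bases before to 50 after the RefSeq start (GRCh38.p14), 5′ to 3′ on the gene's strand. GPC4 and SPRR3 are the genes called with the block, CRNN lies in the same epidermal differentiation cluster as SPRR3, and HTR3E had the smallest p among lower genes. Capitals mark matches, on either strand, to the AP-1 motif TGANTCA, the TATA box TATAAA or the p53-family half-site by its usual consensus.
GPC4 (chrX:133415440-133415739, minus strand): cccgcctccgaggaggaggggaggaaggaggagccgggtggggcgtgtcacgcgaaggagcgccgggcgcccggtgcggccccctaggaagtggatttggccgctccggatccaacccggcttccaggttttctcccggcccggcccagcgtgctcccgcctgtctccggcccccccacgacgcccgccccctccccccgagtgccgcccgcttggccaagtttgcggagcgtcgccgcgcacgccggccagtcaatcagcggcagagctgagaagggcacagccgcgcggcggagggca
SPRR3 (chr1:153001499-153001798, plus strand): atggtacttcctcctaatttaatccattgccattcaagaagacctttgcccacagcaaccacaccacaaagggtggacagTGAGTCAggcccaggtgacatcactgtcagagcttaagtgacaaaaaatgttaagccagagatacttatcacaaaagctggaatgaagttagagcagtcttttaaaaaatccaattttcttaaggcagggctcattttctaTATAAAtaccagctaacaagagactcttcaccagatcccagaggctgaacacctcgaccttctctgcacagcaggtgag
CRNN (chr1:152414214-152414513, minus strand): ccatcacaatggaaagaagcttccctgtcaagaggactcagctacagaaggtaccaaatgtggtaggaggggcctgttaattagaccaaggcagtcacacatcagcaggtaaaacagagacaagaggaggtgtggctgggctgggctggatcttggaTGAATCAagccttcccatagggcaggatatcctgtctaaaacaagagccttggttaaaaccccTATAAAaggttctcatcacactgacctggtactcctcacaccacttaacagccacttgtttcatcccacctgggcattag
HTR3E (chr3:184099929-184100228, plus strand): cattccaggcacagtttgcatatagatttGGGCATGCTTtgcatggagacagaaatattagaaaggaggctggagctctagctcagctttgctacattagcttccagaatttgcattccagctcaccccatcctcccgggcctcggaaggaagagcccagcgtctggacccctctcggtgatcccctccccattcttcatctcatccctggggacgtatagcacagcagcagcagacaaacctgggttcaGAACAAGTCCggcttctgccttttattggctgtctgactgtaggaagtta

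The GPC4 window held none of these letters, which says nothing about binding. SPRR3 and CRNN each held 1 AP-1 match and 1 TATA match, and HTR3E held 2 p53-family matches; its window lies inside the span counted for the gene, which also has an earlier start. Of the 11415 tested genes with a promoter in the RefSeq table, matched by symbol, 4.84% held the AP-1 motif, 6.21% the TATA box and 5.32% the p53-family motif. A match is a description of the letters and not a site of binding.

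Genes still climbing were led by GPC4, glypican 4, a cell-surface heparan sulfate proteoglycan (hg38 chromosome X, 133300103 to 133415489). It stood at 6.55, 8.0 and 8.24 CPM at day 3 and at 19.4, 21.8 and 18.3 CPM at day 6. The days did not overlap, and GPC4 had been at a mean of 0.14 CPM at day 0 and 0.88 at day 1, so each step was upward. Its log2 change was 1.38 ± 0.28 (edgeR adjusted p = 1), and 0.00321 with the replicate block.

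SPRR3 encodes a small proline-rich precursor of the cornified envelope that is abundant in esophageal epithelium (hg38 chromosome 1, 153001747 to 153003856). Its means were 6.54 CPM at day 0 and 4.98 at day 1. Day 3 was not called against either (edgeR adjusted p = 0.407 against day 0 and 0.149 against day 1). SPRR3 stood at 7.69, 15.2 and 13.4 CPM at day 3 and at 16.8, 29.5 and 26.9 CPM at day 6. Replicate 1 was the lowest library on both days, each pair was higher by a similar ratio, and no day 6 library fell within the day 3 range. The log2 change was 0.99 ± 0.27 (edgeR adjusted p = 1; 0.00113 with the replicate block).

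The other heparan sulfate gene among those with the smallest p was HS6ST3, a 6-O-sulfotransferase. HS6ST3 stood at 3.64, 3.41 and 3.09 CPM at day 3 and at 5.88, 6.58 and 7.53 CPM at day 6, a log2 change of 0.97 ± 0.20 with blocked edgeR adjusted p = 0.123. Of 28 tested genes for glypicans and heparan sulfate enzymes, 4 were higher and 5 lower in all 3 pairs, with a median log2 change of 0.01. Those shares (14.3% and 17.9%) lay near those of all genes tested, of which 12.3% were higher and 14.3% lower in all 3 pairs.

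TSPAN18, a tetraspanin membrane protein, stood at 5.51, 4.37 and 5.53 CPM at day 3 and at 11.5, 12 and 10.7 CPM at day 6. The days did not overlap, and the log2 change was 1.17 ± 0.30 (blocked edgeR adjusted p = 0.065; 0.0331 without replicate 2 of day 1). TP53I11 overlaps TSPAN18 in the counted annotation, so its value is uncertain. SIPA1L2, a regulator of small GTPases, stood at 8.42, 6.64 and 5.41 CPM and then at 14.6, 11.6 and 9.76 CPM, and COL19A1, a basement membrane zone collagen, at 15.4, 14.7 and 12.2 CPM and then at 20.9, 18.2 and 18.2 CPM. Neither pair of days overlapped, and neither gene was called in the 12 TAp63 libraries with or without the block. The 6-library fit with the block called both higher (edgeR adjusted p = 0.000241 and 0.0494).

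**Figure D2:**
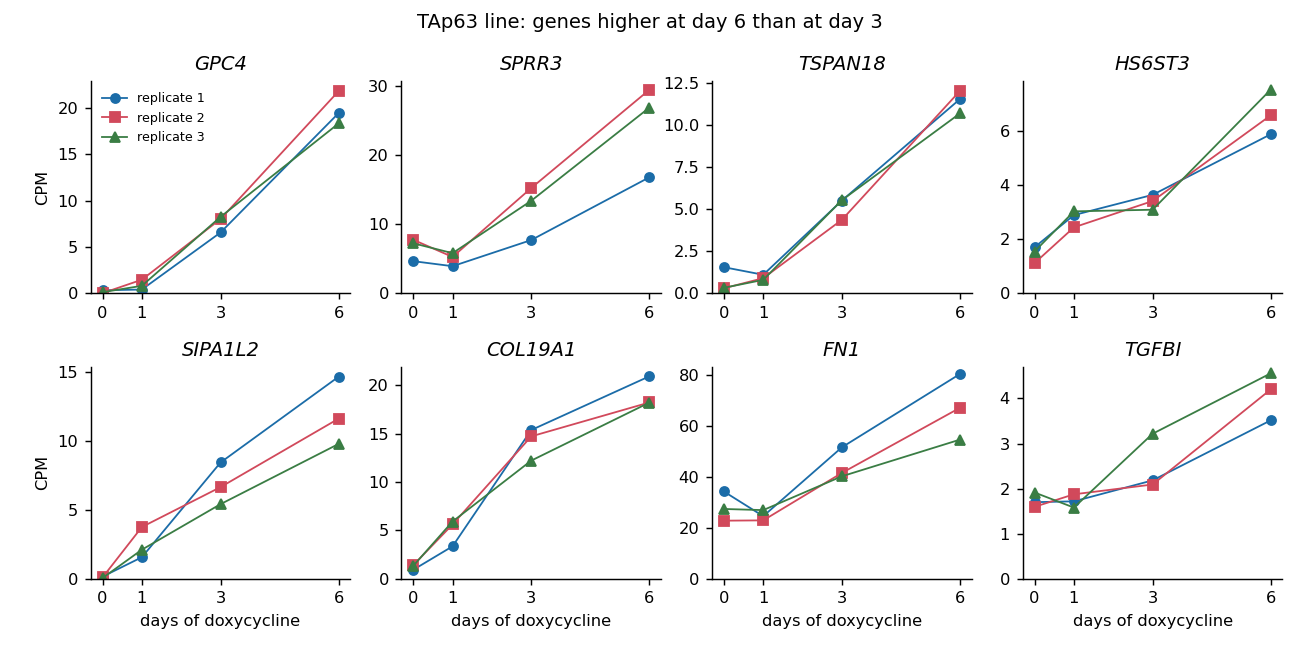
CPM (vertical axis, from 0) over days of doxycycline (horizontal axis) for 8 genes that stood higher at day 6 than at day 3, with 1 line and marker shape per replicate number. All 8 genes show no overlap between the 3 libraries of day 3 and those of day 6.

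Among genes of the extracellular matrix, FN1, fibronectin, stood at 51.7, 41.6 and 40.3 CPM at day 3 and at 80.5, 67.2 and 54.7 CPM at day 6, with no overlap and a log2 change of 0.60 ± 0.17 (blocked edgeR adjusted p = 0.114). TGFBI, a secreted protein that binds integrins and collagen, stood at 2.18, 2.09 and 3.22 CPM and then at 3.51, 4.20 and 4.56 CPM, a log2 change of 0.74 ± 0.22. Of the 16 tested mesenchymal and matrix genes, 4 were higher and 1 lower in all 3 pairs (25% and 6.25%, against 12.3% and 14.3% of all genes). The median log2 change was -0.0027. Of the fibroblast markers, LUM, THY1 and POSTN were at 0 in the 6 libraries, while COL1A1 (17.3 to 26.2 CPM) and PDGFRA (6.18 to 9.32 CPM) were present on both days; their part in the matrix values was not tested.

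Squamous differentiation genes split. Of 30 tested, 6 were higher and 8 lower in all 3 pairs (20% and 26.7%, against 12.3% and 14.3% of all genes). Without the block 0 were called, and with it 1, SPRR3. The 6-library fit with the block called 4 higher and 1 lower of 29, against 0.306% and 0.139% of all genes. The median log2 change was 0.04. SPRR1A, another cornified envelope precursor, stood at 120, 218 and 199 CPM at day 3 and at 179, 350 and 260 CPM at day 6, higher in each pair but overlapping. CRNN, cornulin, stood at 1.77, 1.82 and 3.09 CPM and then at 3.59, 4.26 and 5.95 CPM, a log2 change of 1.08 ± 0.42. SPRR1B (means 4.31 and 6.98 CPM) also overlapped between days. The counting used no option for multi-mapping, so reads that match several near-identical SPRR copies can go uncounted, and these values are uncertain.

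Other members of the list stood lower or overlapped between days. EMP1, an epithelial membrane protein, stood at 30.8, 39.8 and 36.5 CPM at day 3 and at 21.9, 22.9 and 24.6 CPM at day 6, with no overlap and a log2 change of -0.63 ± 0.23. KRT13, the keratin of suprabasal esophageal cells, stood at 36.9, 22.1 and 22.7 CPM and then at 29.7, 21.1 and 19.1 CPM, and PADI3, a peptidylarginine deiminase, at means of 6.11 and 4.53 CPM. KRT13 and S100A14, a calcium-binding epithelial protein (14.6 ± 2.24 and 16 ± 6.85 CPM, SD, n = 3), overlapped between days, as did the protease KLK7, whose mean was higher at day 6 (1.20 and 1.81 CPM, a log2 change of 0.71 ± 0.55). Outside the list, the ion transport regulator FXYD3 overlapped too (1.54 and 2.01 CPM).

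Genes that returned towards earlier levels were led by HTR3E, a subunit of the serotonin-gated 5-HT3 channel. HTR3E stood at 74.3, 86.9 and 76.2 CPM at day 3 and at 46.5, 55.6 and 50.5 CPM at day 6, against means of 18.9 at day 0 and 36.4 at day 1. Every day 6 library lay below every day 3 library and above day 0. The log2 change was -0.64 ± 0.16 (edgeR adjusted p = 1; 0.0903 with the block and 0.0205 with it and without replicate 2 of day 1). HTR3E-AS1 overlaps it and no strand option was used in the counting, so HTR3E is uncertain; HTR3E-AS1 itself had 2 counts over the 6 libraries.

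Without replicate 2 of day 1, the genes that the block also called lower included EMP1, MFSD4A, FAM20C, ATP1B2 and C1orf220. C1orf220 stood at 18, 15.5 and 14.9 CPM at day 3 and at 7.53, 7.58 and 7.63 CPM at day 6. FAM20C, a kinase of secreted proteins, stood at 161, 117 and 97.0 CPM and then at 82.3, 65.6 and 64.6 CPM. ATP1B2, a beta subunit of the sodium pump, stood at 145, 154 and 177 CPM and then at 84.1, 122 and 126 CPM. No library of day 6 reached the day 3 range for these 3 genes.

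The library left out differed from the other day 1 libraries in the same genes. At day 1, FAM20C stood at 89.7, 345 and 70.0 CPM in replicates 1, 2 and 3, ATP1B2 at 24.1, 145 and 34.6 CPM, and C1orf220 at 6.09, 48.5 and 8.29 CPM. IL23R, the receptor subunit for interleukin 23, stood at 5.00, 36.8 and 12.2 CPM at day 1, at 22.5, 25.7 and 30.1 CPM at day 3 and at 10.3, 13.6 and 16.2 CPM at day 6. In the blocked fit without replicate 2 of day 1, the IL23R log2 change of -0.98 ± 0.18 was not called (edgeR adjusted p = 0.0569). What set that library apart was not tested.

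FOS and EGR1, transcription factors of the immediate early response, stood lower as well and were chosen after their values were seen. FOS stood at 84.3, 91.6 and 62.7 CPM at day 3 and at 49.3, 52.1 and 43.2 CPM at day 6, with no overlap, and EGR1 at 103, 66.8 and 41.1 CPM and then at 42.6, 40.4 and 28.9 CPM, with overlap. Their log2 changes were -0.73 ± 0.26 and -0.91 ± 0.36, with blocked edgeR adjusted p of 0.576 and 1. Of 32 tested immediate early and AP-1 genes, 12 were higher (37.5%) and 7 lower (21.9%) in all 3 pairs, against 12.3% and 14.3% of all genes. The median log2 change was 0.04.

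**Figure D3:**
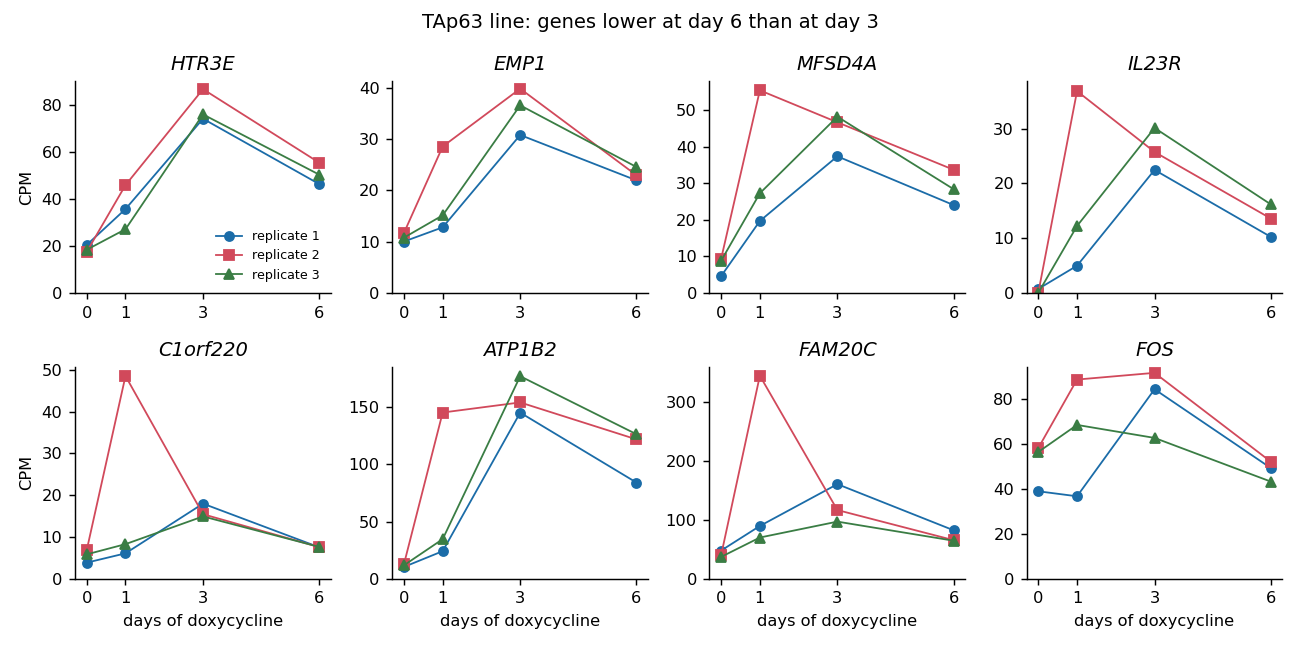
CPM (vertical axis, from 0) over days of doxycycline (horizontal axis) for 8 genes that stood lower at day 6 than at day 3, with 1 line and marker shape per replicate number. HTR3E peaks at day 3 in every replicate, and replicate 2 of day 1 stands above the others for FAM20C, ATP1B2, C1orf220, MFSD4A and IL23R.

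The remaining genes with the smallest p were weakly expressed or are non-coding. On the higher side XYLT1, a xylosyltransferase that starts glycosaminoglycan chains, had 13 counts over the day 3 libraries and 43 at day 6. RBP4, a retinol carrier, had 14 and 63 counts, and TSKS, a testis kinase substrate, 58 and 112. On the lower side, the non-coding LINC01559 stood at 40, 44.4 and 32.3 CPM and then at 28, 29.3 and 24 CPM, while LINC00629 (53 and 29 counts), the kinase ALPK2 (127 and 74) and LMO7-AS1 (36 and 14, overlapping LMO7 and UCHL3) were low. These 7 genes were apart between days, but they were chosen by the p of the same libraries, so this is no further support. Of all genes tested, 2.66% were apart upward and 2.40% downward. With the block, edgeR on the 12 TAp63 libraries called 0 of the 7. The 6-library fit with the block called LINC01559 lower and RBP4 higher (adjusted p = 0.0003 and 0.00194).

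Genes that responded at day 1 offered a list chosen on the contrast of day 1 against day 0. That contrast does not use the means of days 3 and 6, but its spread was estimated from all 4 days. The choice is therefore not independent of the scatter at days 3 and 6. At day 1 against day 0, 19 genes were called (0.126%), all higher. From day 3 to day 6, 0 of the 19 were called, 7 had a positive and 12 a negative change, and their median log2 change was -0.10, against -0.01 over all genes. The libraries were apart upward for 4 and downward for 7, against 2.66% and 2.40% of all genes tested. The part of the shared spread in these counts was not tested. With the block, day 1 called 54 genes. Of the 45 higher, 1 (GPC4) was called from day 3 to day 6, with a median of -0.15, and of the 9 lower 0 were called, with a median of -0.06.

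Within that list the changes ran from -0.97 to 0.81. SIPA1L2 and COL19A1 had the largest positive changes, followed by the complement component C9 (3.98 and 4.92 CPM), the pseudogene FAM86B3P (9.11 and 11 CPM) and TP63 itself. The largest negative changes were those of IL23R, of LINC01002 (5.34 and 3.18 CPM), of the channel gene CALHM3 (4.99 and 3.17 CPM), of HTR3E and of MFSD4A, a transporter of the major facilitator family (44 and 28.7 CPM). MFSD4A-AS1 overlaps MFSD4A. ZCCHC24, a zinc finger protein gene, stood at 53.7, 47.7 and 51.5 CPM and then at 35.3, 41.6 and 48.5 CPM, lower in each pair but overlapping.

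**Figure D4:**
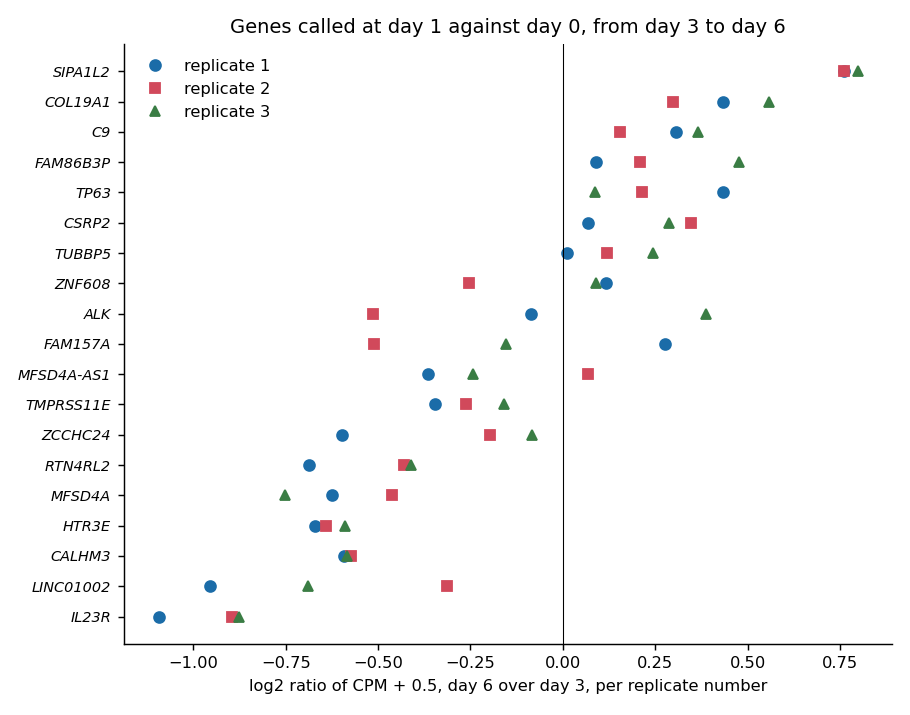
Log2 ratio of CPM + 0.5 at day 6 over day 3 (horizontal axis) for the 19 genes called at day 1 against day 0 (vertical axis), with 1 marker per replicate number. SIPA1L2 and COL19A1 lie above 0 and IL23R, LINC01002, CALHM3 and HTR3E below 0 in all 3 replicates.

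Genes of the ATF4 stress response shared a direction. ATF4 is the transcription factor by which cells short of amino acids or under endoplasmic reticulum stress raise amino acid synthesis, transport and tRNA charging. Of 35 tested, 33 had a positive change, 26 were higher and 0 lower in all 3 pairs (74.3%, against 12.3% of all genes), and the summed level moved from between 7308 and 7679 CPM at day 3 to between 8231 and 8654 CPM at day 6. In the 12-library fits 0 were called with or without the block. In the 6-library fit with the block 4 of 35 were called, all higher (CTH, ATF5, TRIB3 and DDIT4), against 0.306% of all genes. The median log2 change was 0.14, and 5 had an unadjusted p under 0.05. From day 1 to day 3, which shares the day 3 libraries, the median had been -0.13, and from day 0 to day 1 it had been -0.11.

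The 5 were ATF5, TRIB3, PSAT1, MTHFD2 and CTH. ATF5, a transcription factor induced with ATF4, stood at 40.8, 41.6 and 46.8 CPM at day 3 and at 50.9, 55.1 and 63.1 CPM at day 6. TRIB3, a pseudokinase that restrains ATF4, stood at 152, 170 and 163 CPM and then at 202, 208 and 200 CPM. The days were apart for both, by log2 changes of 0.39 ± 0.11 and 0.33 ± 0.12.

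Among the metabolic members, PSAT1, of serine synthesis, stood at 318, 284 and 299 CPM and then at 363, 369 and 345 CPM, and MTHFD2, of mitochondrial folate metabolism, at 495, 492 and 483 CPM and then at 574, 606 and 530 CPM. CTH, of cysteine synthesis, overlapped, at 27.2, 37.5 and 41.3 CPM and then 39.9, 49.4 and 54.1 CPM. Both PSAT1 and MTHFD2 stayed below their day 0 means of 407 and 664 CPM. Day 0 and day 6 means were 204 and 203 CPM for TRIB3, 48.5 and 47.8 for CTH, and 371 and 365 for DDIT4. For ATF5 they were 51.3 and 56.4 CPM. ATF5 overlaps IL4I1 and NUP62, and MTHFD2 overlaps SLC4A5, so both are uncertain.

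A core of the element that ATF4 and C/EBP proteins bind together, TGATGNAA on either strand, was present in 7 of the 29 list promoters that the RefSeq table holds (24.1%), against 1.80% of the promoters of genes tested. The list was chosen as genes of the ATF4 response, so this share does not bear on the change from day 3 to day 6. Whether ATF4 acted was not tested. CHAC1, a glutathione-degrading enzyme gene (9.49 ± 1.24 and 11.6 ± 0.78 CPM, SD, n = 3), was not called in the 6-library fit with the block (edgeR adjusted p = 0.624). It is shown as an example of the letters, with its match in capitals.
CHAC1 (chr15:40953221-40953520, plus strand): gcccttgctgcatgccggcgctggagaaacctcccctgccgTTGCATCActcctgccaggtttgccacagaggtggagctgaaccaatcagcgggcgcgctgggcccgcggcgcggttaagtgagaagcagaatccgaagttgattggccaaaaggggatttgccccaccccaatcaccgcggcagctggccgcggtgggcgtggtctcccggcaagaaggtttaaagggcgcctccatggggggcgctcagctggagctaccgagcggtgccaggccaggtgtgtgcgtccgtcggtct

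The pathway lists for hypoxia and the cell cycle had smaller medians than the ATF4 list. Of all genes tested, 12.3% were higher and 14.3% lower in all 3 pairs. Hypoxia and glycolysis genes had 10 of 30 higher (33.3%) and 0 lower in all 3 pairs, with a median log2 change of 0.06. In the 6-library fit with the block, 3 of 29 were called, all higher, against 0.306% of all genes. They were EGLN3, a prolyl hydroxylase (means 132 and 172 CPM), the peptide hormone ADM (9.42 and 13.3 CPM) and NDRG1 (257 and 333 CPM). Genes of the G1/S transition, which open DNA replication, had 0 of 35 higher and 10 lower (28.6%) in all 3 pairs. Their median was -0.07 and 0 were called. The G2/M genes had 2 higher and 4 lower of 36 (5.56% and 11.1%), and p53 family targets 3 and 3 of 29 (10.3% and 10.3%). Of 22 tested basal squamous genes 3 were higher and 4 lower (13.6% and 18.2%), and of 17 neuroendocrine genes 1 and 3 (5.88% and 17.6%).

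Erythroid markers varied with replicate number. Their 15 genes summed to 2.96 to 74.6 CPM at day 3 and 3.25 to 45.6 CPM at day 6, with the highest in replicate 1 on both days. The fetal globin HBG2 stood at 29.7, 6.91 and 0.52 CPM at day 3 and at 15.6, 4.39 and 0.65 CPM at day 6, and HBG1, a near-identical copy, followed it. Both were among the 20 genes called lower in the 6-library fit with the block; the part of replicate differences in that fit was not tested. Without replicate 1 of day 3 their log2 changes turned positive, at 0.73 for HBG2 and 0.63 for HBG1, and the adult globin HBB was at 0 in the 6 libraries.

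**Figure D5:**
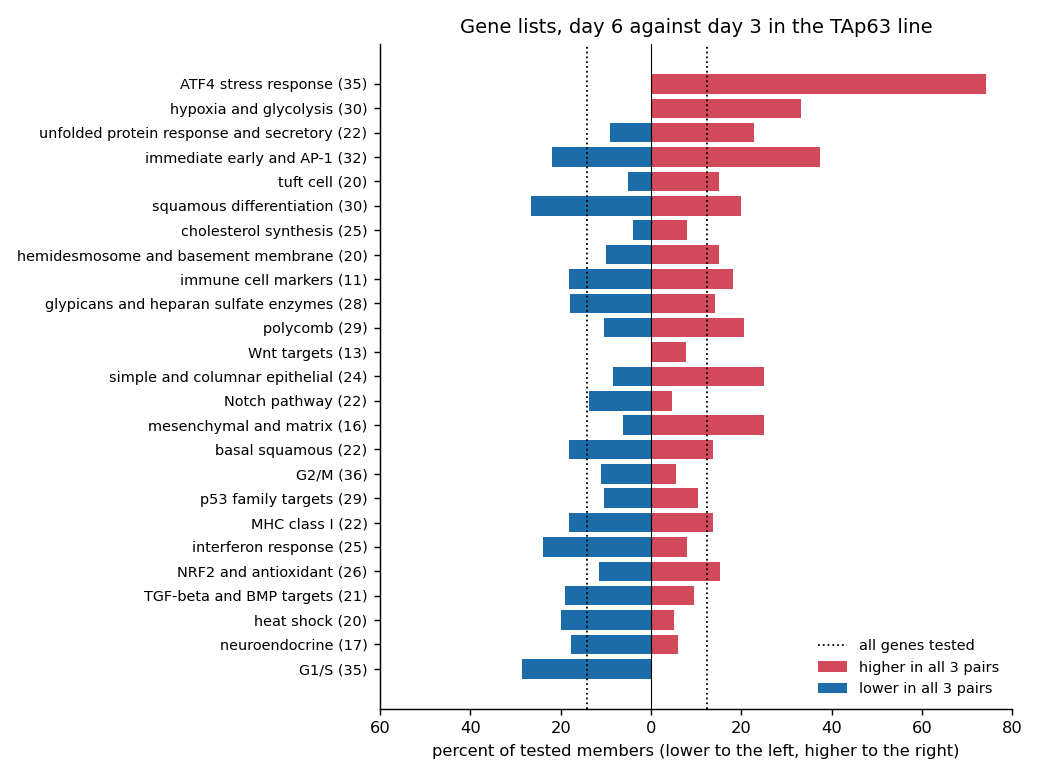
Percent of tested members of each gene list (number tested in brackets) that were higher (red, to the right) or lower (blue, to the left) at day 6 in all 3 same-numbered pairs, in order of median log2 change. Dotted lines mark 12.3% and 14.3%, the shares over all 15056 genes; the ATF4 stress response reaches 74.3%.

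Several course genes overlapped between the days and were not called. B2M, the MHC class I light chain, stood at 550 ± 27.5 and 630 ± 72.9 CPM (SD, n = 3), and AGR2, a secretory disulfide isomerase, at 25.4 ± 4.47 and 28.8 ± 6.76 CPM. The kinase gene BMX had means of 41.6 and 36.8 CPM, POU2F3 of 183 and 182, EZH2 of 166 and 169, and the cell cycle inhibitor CDKN1A of 10.0 and 8.77 CPM. The ion channel TRPM6 (3.90 and 5.24 CPM) and ART3 (3.05 and 2.09 CPM) were apart between days, upward and downward. POU2F3, CDKN1A and ART3 have overlapping neighbours and are uncertain.

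The same step in the ΔNp63 line, which has its own libraries, was compared in a fit of the 12 libraries of days 3 and 6 in both lines, over 15216 genes. For the TAp63 step that fit called 1 gene, GPC4 (edgeR adjusted p = 0.0043), and 22 with the block, 11 higher and 11 lower. Those lower included HTR3E, EGR1, EMP1, MFSD4A, FAM20C, RTN4RL2, ATP1B2, FOS, IL23R and C1orf220, and those higher included GPC4, SPRR3, TSPAN18, SIPA1L2, FN1 and HS6ST3. In the ΔNp63 line 19 genes were called (0.125%; 2.64% with the block). Of these, 6 called higher and 10 called lower were tested in the TAp63 fit, and their TAp63 changes were positive in 6 of 6 (median log2 0.67) and negative in 10 of 10 (median -0.54). They include FN1, TGFBI and CRNN upward and HTR3E, EMP1, MFSD4A and RNASE1 downward. Of all 15056 genes tested in the TAp63 fit, 7028 had a positive and 8028 a negative change. With the longer lists from the block, agreement was weaker. TAp63 changes were positive in 70 of the 130 called higher (median 0.01) and negative in 152 of the 260 called lower (median -0.03).

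One gene differed between the lines. GPC4 stood at 3.44, 3.93 and 3.89 CPM at day 3 and at 3.14, 2.36 and 3.15 CPM at day 6 in the ΔNp63 line, a log2 change of -0.40 against the rise in the TAp63 line. The difference, TAp63 minus ΔNp63, was 1.79 on the log2 scale (edgeR adjusted p = 0.0369, 0.00657% of genes called), and it was lost, with 0 genes called, in the fit of all 24 libraries and without any 1 of the 12 libraries. With the block 13 genes differed (0.0854%), among them GPC4, HTR3E, FOS, ALK, CSRP2 and MGP.

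Each of these genes had its own pattern. HTR3E stood lower at day 6 in both lines, from 68.2, 68.1 and 67.9 to 21.3, 26.1 and 27.1 CPM in the ΔNp63 line, where the log2 change was -1.46 against -0.64 in the TAp63 line (edgeR adjusted p of the difference 0.84, and 0.00374 with the block). ALK, a receptor tyrosine kinase with an overlapping neighbour, stood at means of 4.47 and 4.28 CPM in the TAp63 line and went from 6.40, 6.80 and 8.34 to 1.88, 1.00 and 1.89 CPM in the ΔNp63 line. In the ΔNp63 line FOS stood at 28.5, 26.9 and 28.8 and then 34.5, 36.9 and 26 CPM. CSRP2, a LIM domain protein, and MGP, an inhibitor of calcification, had positive changes in the TAp63 line (0.23 and 0.32) and negative ones in the ΔNp63 line (-0.49 and -0.22).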

How the data were processed

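RNA from 24 TYUC-1 libraries was sequenced, of which 12 are of the TAp63 line. The authors deposited raw counts per gene, not normalized. The submitters' processing notes name HISAT2 2.1.0, the build hg38, featureCounts 1.6.1 and DESeq2 (no version); per the file header, featureCounts 2.0.0 made the deposited counts on the UCSC refGene annotation. In that command, read pairs falling anywhere in a transcript's span, introns included, were counted, with no option for strand, multi-mapping or multiple overlaps.

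Of 28278 genes, 6507 had 0 counts in the 12 libraries. Tests used edgeR 4.0.16 under R 4.3.3: low counts were filtered by group with filterByExpr, libraries scaled by TMM, and glmQLFit and glmQLFTest fitted, with 8 residual degrees of freedom and Benjamini-Hochberg adjustment over all 15056 genes tested. CPM used TMM-adjusted library sizes; SE is the absolute log2 change over the square root of F and is approximate. The script was tested on simulated data. The lines were compared in 1 fit of their 12 libraries of days 3 and 6. DESeq2 1.42.0 was an alternative, as were the replicate block, other sets of libraries, RLE factors, no filter and each library left out.

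Same-numbered libraries of days 3 and 6 had correlated deviations from their day means (0.69, 0.34 and 0.52 over 15056 genes), so the numbers were taken to pair the samples. Neither the labels nor the series text say that the numbers mark a shared batch. A list's direction was read per pair on log2(CPM + 0.5). The text names TP63, the 5 genes with the smallest p in each direction, the 5 largest changes each way among genes called at day 1 with at least 1 CPM, an earlier list of course genes and genes that differed between the lines. Other named genes were chosen after their values were seen. The members and gene lists were chosen with earlier results of these data known. Some results are not reported here.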

Additional observations from a re-analysis of the deposited data

Results flagged for a closer look

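GPC4 moved differently in the lines from day 3 to day 6. Its log2 change was larger by 1.79 in the TAp63 line than in the ΔNp63 line, by the test of the difference itself (edgeR adjusted p = 0.0369 over 15216 genes; 0.00147 with the replicate block). All 3 TAp63 pairs were higher at day 6 and all 3 ΔNp63 pairs lower. The difference was not called, with 0 genes called, in fits of 24 or 23 libraries or without any 1 of the 12 libraries.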

How the results depend on the processing

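Without the block, 0 genes were called in either direction from day 3 to day 6 with 24 libraries, 23 libraries (without 1 ΔNp63 day 1 library), only the 6 libraries, RLE factors, no filter or each library left out (109 to 217 genes at an unadjusted p under 0.05), and DESeq2 called 1 higher. Because same-numbered libraries deviated together, the replicate block was tried. It called 2 higher and 0 lower, and with 23 libraries 4 and 1. With DESeq2 the block called 3 and 1, and with only the 6 libraries 44 and 20. Blocked fits without replicate 1, 2 or 3 of both days called 6 higher and 1 lower, 0 and 0, and 2 and 0; without replicate 2 of TAp63 day 1 the block called 3 and 7. The blocked fits of only 6 libraries, with a pair removed or by DESeq2, and those without that day 1 library, were chosen after seeing the data. Of the day 1 genes, 1 was called with the block. Genes that differed between the lines numbered 13 with the block, 3 with DESeq2, 0 with 24 or 23 libraries, and 0 to 0 with each library left out. The causes were not tested.

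Small changes turned sign. Leaving out each library, log2 changes ran from -0.43 to 0.073 for KRT13, -0.26 to 0.37 for S100A14, -0.025 to 0.31 for AGR2, -0.058 to 0.075 for POU2F3, -0.11 to 0.14 for EZH2, -0.32 to 0.015 for CDKN1A, -0.24 to 0.093 for ALK, -3.00 to 0.63 for HBG1 and -2.21 to 0.73 for HBG2. With the block, POU2F3 was at 0.0042 with only the 6 libraries, 0.016 without replicate 1 and 0.042 without replicate 3; without replicate 2, KLK7 was at -0.21 and ALK at 0.14, and without replicate 3 S100A14 was at -0.15. Genes with few counts, such as XYLT1 and LMO7-AS1, are limited by depth.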
